A study of Mus musculus with 3 samples.

Results

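The imprinted Dlk1-Dio3 locus carries a large cluster of miRNA genes on mouse chromosome 12, and its miRNAs were read on arrays of mouse BMDCs, dendritic cells that are grown in culture from bone marrow and present antigen to T cells. Members were chosen by name: every mouse probe whose miRNA number belongs to the locus was taken, with any letter, arm or star. That gave 67 miRNA names on 68 probes, of 568 mouse miRNA names on 579 probes. Control BMDCs had no tumour line named in the labels. The 2 other groups were BMDCs kept in transwell plates for 24 h, in medium with 3% serum. Their neighbours were either the murine ovarian tumour line ID8 (spelled 1D8 in the deposited table) or the murine colon carcinoma line CT-26. All groups share the cell type, total RNA extraction and the Hy3 dye, and how the control was plated, fed and timed is not given in the sources used here. Each group has 1 array, so no value has a replicate, no test was possible, and every difference describes a pair of arrays.

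At this locus Dlk1, Rtl1 and Dio3 are transcribed from the paternal chromosome, while the non-coding RNAs Meg3, antisense Rtl1, Rian and Mirg are transcribed from the maternal one and give rise to the miRNAs. The cluster is known for expression in the embryo, placenta, brain and stem cells, and the Meg3 RNA is linked to imprinting and growth control. The members are described here in the order of their host transcripts, namely 9 names from the Meg3 end, 10 from antisense Rtl1, 2 from Rian and 46 from the Mirg group. In a bulk sample fewer cells of a type and less RNA per cell cannot be told apart.

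Mature sequences are shown for the 5 members with the highest readings and for the 4 that differed at least 2-fold in some comparison, because these carry the results. They are RefSeq sequences of build GRCm38.p6, all on the plus strand, written 5′ to 3′ with the seed, bases 2 to 8, in capitals. Plain and starred names were given an arm from the miRBase naming of the period, since the files hold no probe sequences.
miR-667: uGACACCUgccacccagcccaag
miR-382*: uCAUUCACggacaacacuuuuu
miR-300*: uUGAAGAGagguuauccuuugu
miR-329: aACACACCcagcuaaccuuuuu
miR-494: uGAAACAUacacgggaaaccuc
miR-433*: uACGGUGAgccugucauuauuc
miR-673-3p: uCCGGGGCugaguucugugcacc
miR-370: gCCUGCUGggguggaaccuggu
miR-337-3p: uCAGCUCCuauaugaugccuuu

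The Meg3 end holds miR-673-3p at chr12:109572044-109572066 and miR-337-3p at chr12:109585850-109585871. Of the antisense Rtl1 group, miR-433* lies at chr12:109591729-109591750, and of the Rian group, miR-370 lies at chr12:109618305-109618326. In the Mirg group, miR-329 lies at chr12:109713541-109713562, miR-494 at chr12:109715367-109715388, miR-667 at chr12:109720061-109720083, miR-300* at chr12:109724318-109724339 and miR-382* at chr12:109733819-109733840. These 9 miRNAs have 9 different seeds. Over the 64 member names with a RefSeq sequence there were 63 distinct seeds, and the pair that shared a seed was miR-376b* and miR-376c*. A miRNA finds its targets mainly through its seed.

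Values are intensities. Corrected intensity is the scanner reading less the local background, and normalized intensity is the corrected intensity divided by 1 constant per array. A probe was counted as above the floor at a corrected intensity of at least 50 units, against 6, 1.75 and 2.25 units for the brightest of 21 empty spots (control, then ID8, then CT-26, the order used for every triplet of values here). Of 8 negative control probes, 1, 0 and 1 reached that floor on those arrays, so a reading above it does not show that a probe bound the miRNA it is named for. Probes differ in how well they bind, so the readings of different probes are not compared as amounts of RNA.

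Of the 67 members, 18 passed the floor in control BMDCs, 18 beside ID8 cells and 16 beside CT-26 cells. These are 26.9%, 26.9% and 23.9% of the members, beside 31.1%, 34.3% and 31.9% of the 501 other mouse miRNAs. In all, 19 members were above the floor on at least 1 array, 16 on all 3, and 48 on none. Of 27 names in the Sfmbt2 cluster and its relatives, another large imprinted group of repeated miRNA genes, 22, 23 and 21 were above the floor. The share of names above the floor was thus lower for the Dlk1-Dio3 members on each array, a difference that was not tested.

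Of 8 well-studied members named whatever their level, 7 were under the floor on all 3 arrays and miR-494 was above it. miR-127, which with its neighbours is fully complementary to the Rtl1 transcript, read 44.5 units in control BMDCs, 9 beside ID8 cells and 2.5 beside CT-26 cells. It was the highest of the members under the floor on the control array, and it was low on both co-culture arrays. miR-134, a brain miRNA that acts on Limk1 at synapses, read 14, 15 and 10.5 units. miR-154 read 21.25, 23.75 and 15.25 units. For miR-379, miR-376a, miR-410 and miR-495, of the neuronal activity-regulated stretch from miR-379 to miR-410, the readings lay at or near 0 on all 3 arrays, with 1 unit the highest. Over all members under the floor, the median reading was 2.25, 2 and 1.75 units, and 35, 38 and 38 of 49 probes read under 10 units.

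**Figure D1:**
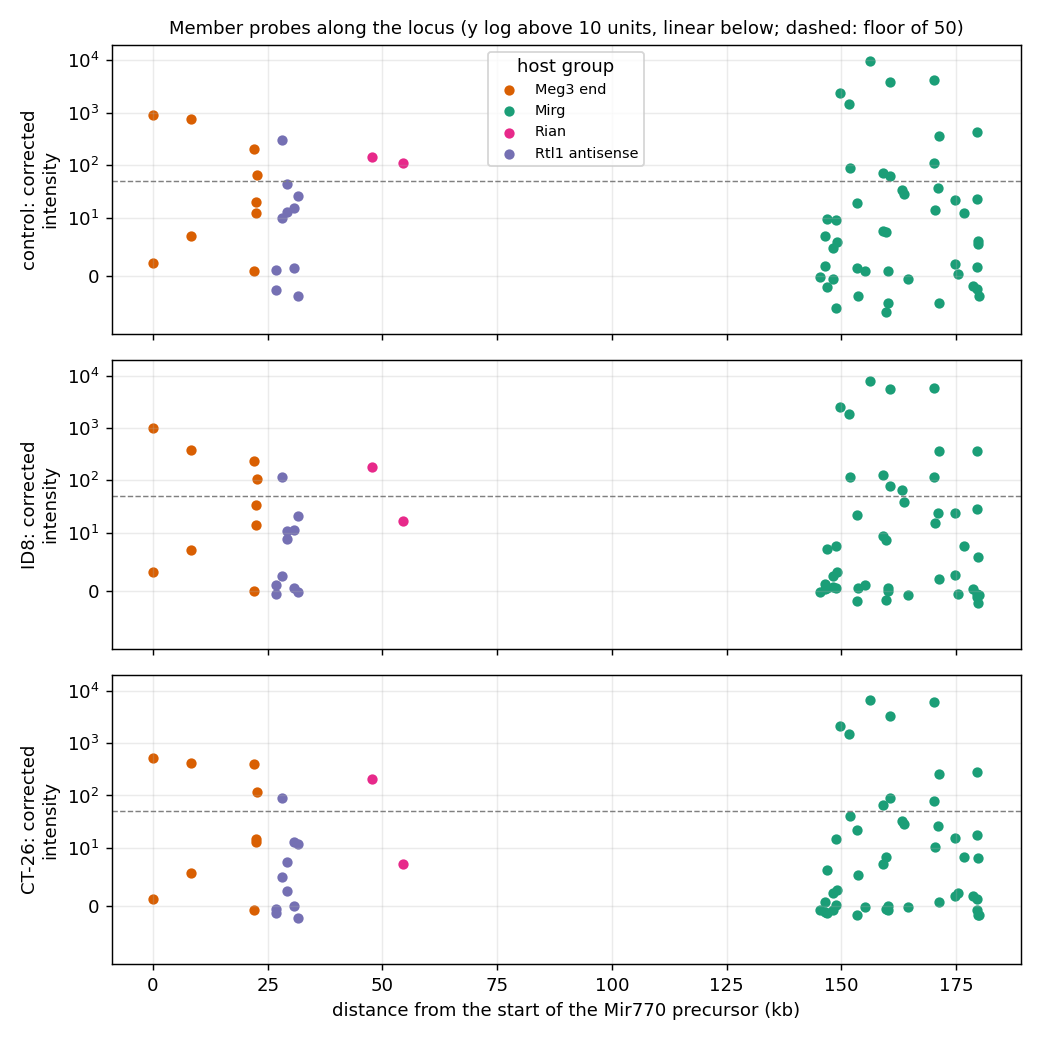
Corrected intensity of the 68 member probes (y axis, in units, logarithmic above 10 and linear below) against the distance in kb from the start of the Mir770 precursor (x axis), with 1 panel per array and colours for the host group. Probes above the dashed floor of 50 units stand beside probes near 0 within the Meg3 end, antisense Rtl1 and Mirg groups on all 3 arrays.

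By host group, 4 of 9 names from the Meg3 end were above the floor on each array, 1 of 10 from antisense Rtl1, and 11, 12 and 10 of 46 from the Mirg group. Both Rian names passed it in control BMDCs and 1 of them in each co-culture. The plot of readings along the locus shows bright probes beside dark ones in several host groups. It also shows dark runs, as from miR-379 to miR-758, where every name was under the floor on all 3 arrays. Among 39 names of the 3p arm, 15 were above the floor on at least 1 array, and among 28 of the 5p arm, 4 were. These are 38.5% and 14.3%, beside 35.2% of all mouse miRNA names, and the difference between arms was not tested. Mature sequences of the members above the floor had a median GC content of 52.3% (range 36.4% to 72.7%, 18 sequences), and those under it 47.5% (range 23.8% to 72.7%, 46 sequences). A run of at least 3 U at the 3′ end was present in 3 of those 18 sequences (miR-337-3p, miR-329 and miR-382*) and in 1 of those 46.

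Among the Meg3 end members, miR-770-3p, from an intron of Meg3, had a normalized intensity of 2.85 in control BMDCs, 2.53 beside ID8 cells and 1.52 beside CT-26 cells. The CT-26 array was the lowest. miR-673-3p had 2.39, 0.944 and 1.25, with the control array above both co-cultures. miR-337-3p had 0.618, 0.579 and 1.21, so that the CT-26 array stood above the control and ID8 arrays, which lay close together. miR-665 had 0.196, 0.264 and 0.349, from a corrected control reading of 63.75 units, just above the floor.

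In the antisense Rtl1 group miR-433*, the passenger strand of miR-433, was the only name above the floor on any array. Its normalized intensity was 0.915 in control BMDCs, 0.293 beside ID8 cells and 0.271 beside CT-26 cells. Both co-culture arrays were low and close to each other. Its partner strand miR-433 read 10, 2.5 and 5 corrected units.

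In Rian, miR-341, a rodent miRNA from a repeated stretch, had normalized intensities of 0.434, 0.458 and 0.615. miR-370 had corrected readings of 111.25 units in control BMDCs, 16.5 beside ID8 cells and 7.25 beside CT-26 cells. It was above the floor in control BMDCs and under it beside both tumour lines. The local background taken off over all probes was higher and more uneven on the control array, from 51.75 to 73.75 units. It ran from 46.5 to 52 units on the ID8 array and from 46 to 50.75 on the CT-26 array. The part of that background in dim readings was not tested.

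In the Mirg group, miR-667 had the highest reading of all members, with a normalized intensity of 29.4 in control BMDCs, 20.2 beside ID8 cells and 19.6 beside CT-26 cells. The control array stood above both co-cultures, which differed little. miR-382* had 13.1, 14.5 and 18.0, and was highest beside CT-26 cells. miR-300* had 12.1, 13.8 and 10.01, in a different order. miR-329, which acts with miR-134 on dendrite growth in neurons, had 7.25, 6.42 and 6.38. miR-494 had 4.48, 4.59 and 4.54, nearly the same level on all 3 arrays.

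Other Mirg members above the floor had normalized intensities between 0.192 and 1.35 on the control array where they reached it there. miR-412 had 1.35, 0.928 and 0.829, and miR-485* had 1.10, 0.911 and 0.749, both highest on the control array. miR-382 had 0.343, 0.284 and 0.229. miR-376c, of a family that shares much of its sequence, had 0.219, 0.322 and 0.195, and was highest beside ID8 cells. miR-679 had corrected readings of 86.5, 115.25 and 39.75 units, so the CT-26 reading alone missed the floor. miR-300 had normalized intensities of 0.192, 0.197 and 0.272, and miR-381 corrected readings of 33.75, 64 and 33.25 units. The pair miR-300 and miR-381 is shown here because the sequences differ at 3 of 22 positions, so that RNA of either may bind both probes, which leaves both values uncertain.
miR-300: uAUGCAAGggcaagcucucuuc
miR-381: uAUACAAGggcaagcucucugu
miR-300 lies at chr12:109724363-109724384 and miR-381 at chr12:109726870-109726891.

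**Figure D2:**
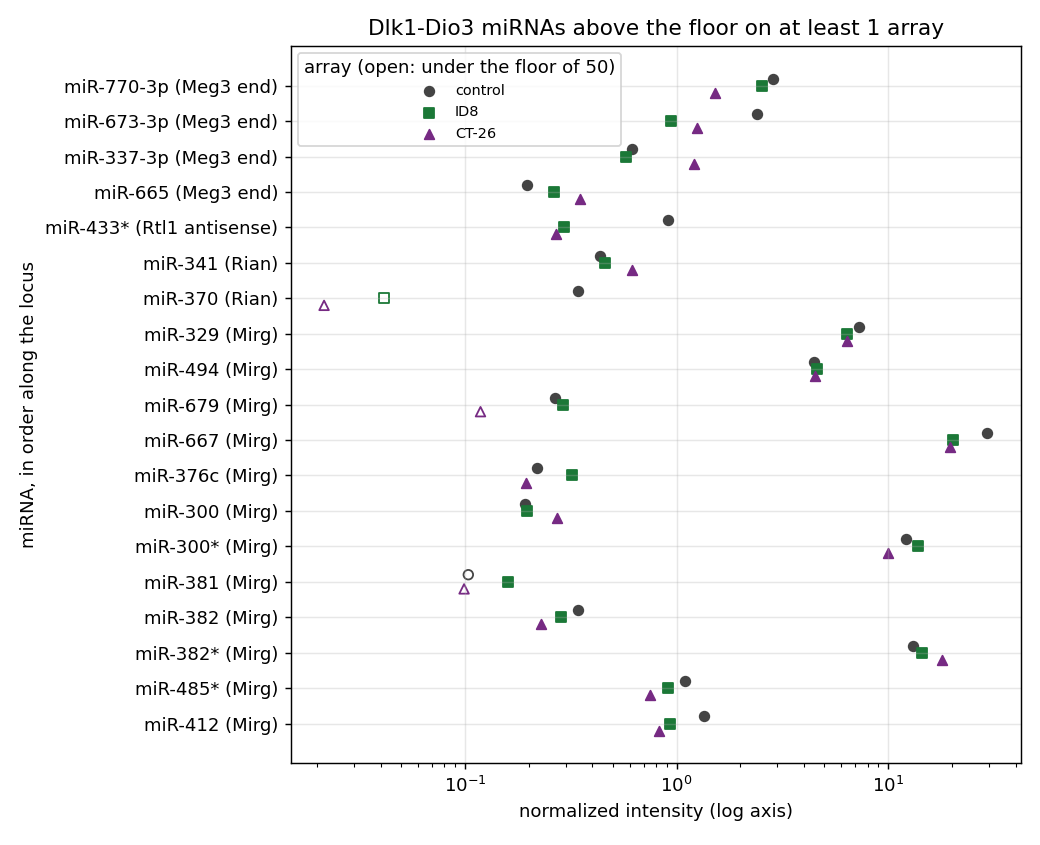
Normalized intensity (x axis, logarithmic) of the 19 members above the floor on at least 1 array, in order along the locus (y axis), with a circle for control, a square for ID8 and a triangle for CT-26, open where the corrected reading was under 50 units. miR-667 runs from 19.6 to 29.4, miR-494 from 4.48 to 4.59, and miR-370 is filled on the control array alone.

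Both arms of 23 precursors had a probe. In 15 of them neither arm was above the floor on any array, in 5 the 3p arm alone, in 1 (miR-433) the 5p arm alone, and in 2 both. The 5 with the 3p arm alone were miR-337, miR-376c, miR-485, miR-673 and miR-770. The 2 with both were miR-300 and miR-382, whose starred strands read at least 3357 and 4248.25 corrected units on every array. The strands without a star read 62.5, 78.5 and 91.25 units for miR-300 and 111.5, 113.25 and 76.75 units for miR-382. Of the starred member names, 4 of 13 (30.8%) were above the floor on each array, near the 30.6%, 33.5% and 31.0% of all mouse miRNA names.

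**Figure D3:**
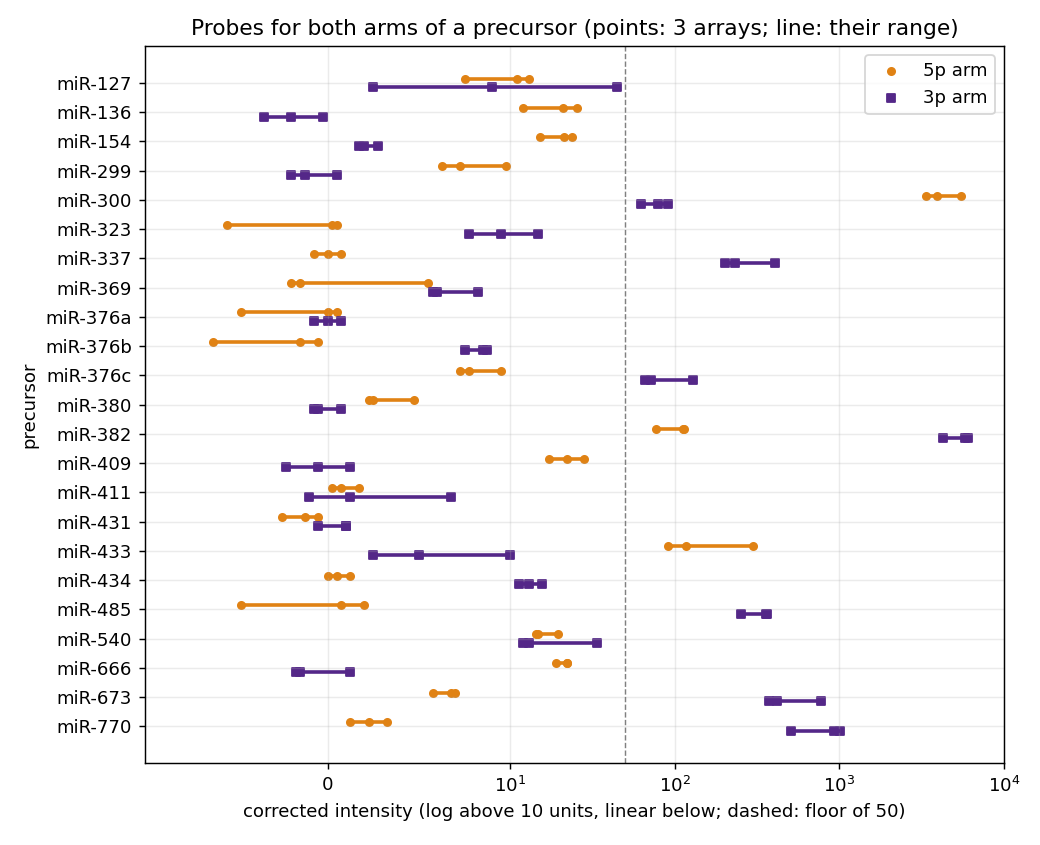
Corrected intensity (x axis, in units, logarithmic above 10 and linear below) of the 5p and 3p probes of 23 precursors (y axis), with a point for each of 3 arrays and a line for their range. In 15 precursors both arms lie left of the dashed floor of 50 units, and readings of different probes are not amounts of RNA.

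The comparison of ID8 co-culture with control asked which members differ beside ovarian tumour cells. miR-433* was 3.12-fold lower in the ID8 co-culture and miR-673-3p 2.53-fold lower. miR-370 was at least 2.73-fold lower, its control level being set against the lowest normalized intensity above the floor on the ID8 array, since it was under the floor there. That bound was short of 2-fold, in both co-cultures, with normexp, with an offset of 50 and at a floor of 100 units. No measured member was at least 2-fold higher.

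Of 17 members that passed the floor on both of these arrays, 0 were 2-fold higher or more and 2 were 2-fold lower or more, where 4.85% of all 165 mouse miRNAs measured were higher and 3.03% lower. Of 1 member above the floor on the control array alone, 1 was at least 2-fold lower as a bound, where 33.3% of 9 mouse miRNAs were. The members' log2 ratios ran from -1.64 to 0.55, 8 of them above 0 and 9 below, with a median of -0.09 beside 0.02 over all mouse miRNAs. The highest was miR-376c at 0.55, followed by miR-665 at 0.43, and the next lowest after the called ones were miR-667 at -0.55 and miR-412 at -0.54. miR-494 stood at 0.03 and miR-329 at -0.18. U6-snRNA-2, the spliceosomal RNA often used to scale small RNA data, had a log2 ratio of 1.27. Scaled to that probe, 0 of 17 members were at least 2-fold higher and 15 lower, with 1 and 117 over all mouse miRNAs, whose median moved to -1.25.

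The comparison of CT-26 co-culture with control asked the same beside colon tumour cells. miR-433* was 3.38-fold lower in the CT-26 co-culture, and miR-370 was at least 2.30-fold lower as a bound. miR-673-3p was 1.91-fold lower and miR-770-3p 1.87-fold lower, while miR-337-3p was 1.95-fold higher and miR-665 1.78-fold higher, all short of 2-fold.

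Of 16 members that passed the floor on both of these arrays, 0 were 2-fold higher or more and 1 was 2-fold lower or more, where 13.3% of all 158 mouse miRNAs measured were higher and 6.96% lower. Of 2 members above the floor on the control array alone, 1 was at least 2-fold lower as a bound, where 31.2% of 16 mouse miRNAs were, and the other, miR-679, had a bound of 1.78-fold lower. The members' log2 ratios ran from -1.76 to 0.97, with 6 above 0 and 10 below, and had a median of -0.23 beside 0.01 over all mouse miRNAs. miR-412 stood at -0.70, miR-667 at -0.59, miR-382 at -0.58 and miR-485* at -0.55, and on the other side miR-341 and miR-300 both stood at 0.50 and miR-382* at 0.46. Scaled to U6-snRNA-2, whose own log2 ratio was 1.07, 0 of 16 members were at least 2-fold higher and 11 lower, with 1 and 83 over all mouse miRNAs and a median of -1.06. Both comparisons use the same control array, so a low or high control reading enters each of them. At a floor of 100 units miR-433* was no longer measured beside CT-26 cells, where it read 90.75 corrected units, so that 0 measured members were at least 2-fold lower, and its log2 bound was -1.59.

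**Figure D4:**
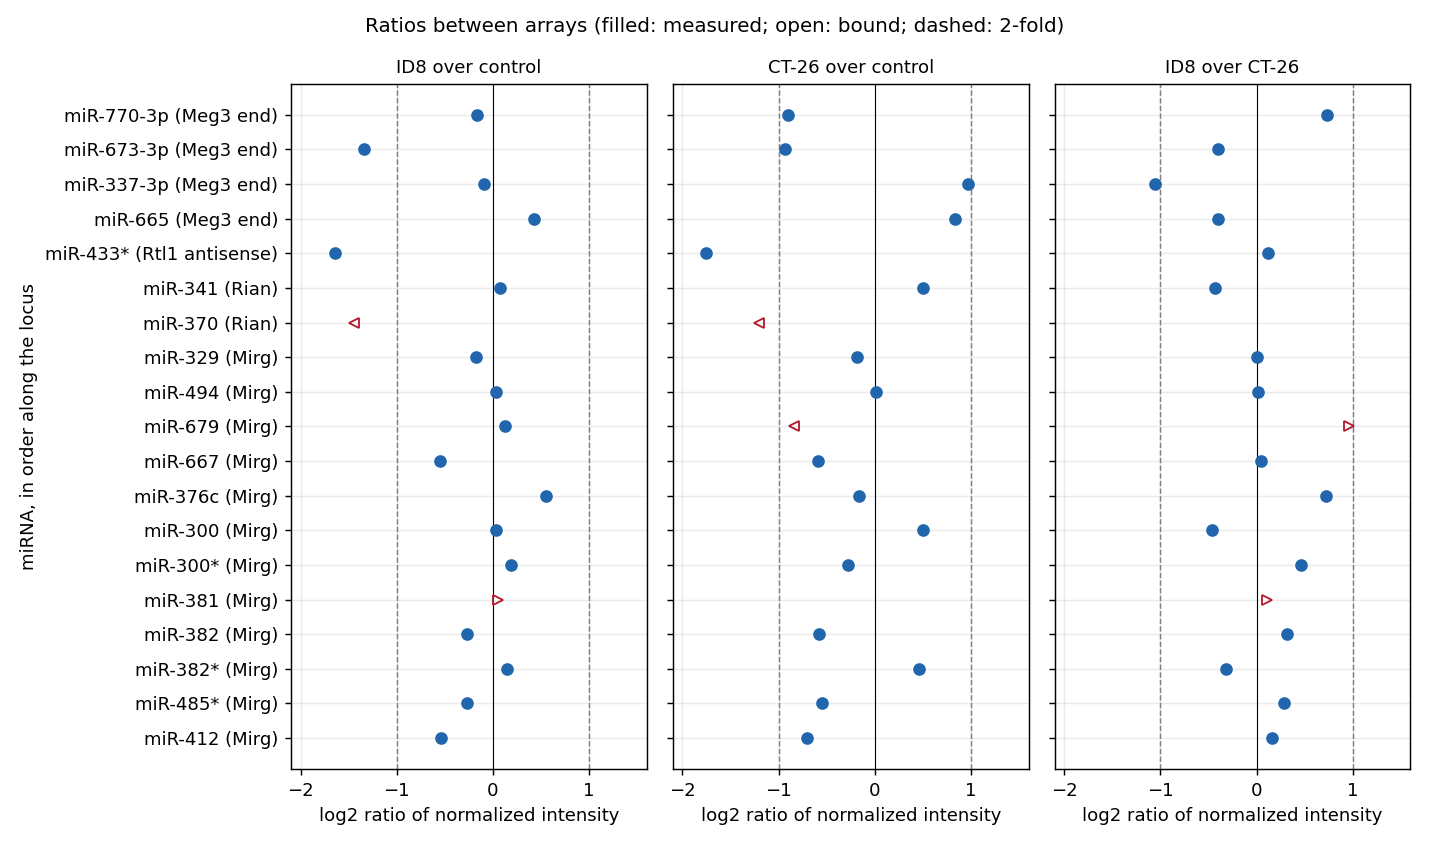
Log2 ratio of normalized intensity (x axis) for the 19 members above the floor on at least 1 array, in order along the locus (y axis), with filled points for members measured on both arrays and open triangles for bounds. miR-433* lies left of the dashed 2-fold line in the first and second panels, at -1.64 and -1.76, and miR-337-3p does so in the third, at -1.06.

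Set directly against each other, the co-cultures differed most, among measured members, in miR-337-3p of the Meg3 end. miR-337-3p was 2.08-fold lower beside ID8 cells than beside CT-26 cells. Nearly level after it were miR-770-3p of the Meg3 end, 1.67-fold higher, and miR-376c of the Mirg group, 1.65-fold higher. miR-433* had a log2 ratio of 0.12, miR-667 of 0.04, miR-494 of 0.02 and miR-329 of 0.01.

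Of 16 members measured on both co-culture arrays, 0 were at least 2-fold higher beside ID8 cells and 1 lower, where 2.29% of all 175 mouse miRNAs measured were higher and 6.29% lower. Of 2 members above the floor on the ID8 array alone, 0 were at least 2-fold higher as a bound, where 6.67% of 15 mouse miRNAs were. miR-679 was at least 1.94-fold higher and miR-381 at least 1.08-fold higher beside ID8 cells. The median log2 ratio was 0.03 beside -0.01 over all mouse miRNAs, with 10 members above 0 and 6 below. miR-376c stood at 0.72, miR-300* at 0.47 and miR-300 at -0.47, so the arms of the miR-300 precursor had ratios of opposite sign. The arms of the miR-382 precursor did as well, with 0.31 for miR-382 and -0.32 for miR-382*. The log2 ratio of miR-337-3p was -0.81 without normalization, and it was also short of 2-fold scaled to SNORD3@, with normexp and with an offset of 50.

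Lists of myeloid, epithelial, mesenchymal and neuronal miRNAs were read on the same arrays. The lists were chosen with earlier results of these data known, so a rise in the sum of a list is not independent evidence on cell content. Of 7 myeloid miRNAs, 5 passed the floor in control BMDCs and 7 in each co-culture, with summed corrected readings of 822.25, 2654.5 and 2366.75 units. Beside CT-26 cells miR-22 read 571.5 units against 117.5 in control BMDCs, miR-21 274.5 against 65.5 and miR-142-5p 752.25 against 181.5, while miR-142-3p, from the same blood cell precursor as miR-142-5p, read 236.75 against 305. Beside ID8 cells miR-142-3p read 409.5 units. Of 9 epithelial miRNAs 2 were above the floor on each array, with sums between 235.75 and 319.25 units. These were miR-194, which read 51.75, 53.25 and 187 units, and miR-200b, which read 143.5, 141.5 and 97.25 units, so that beside CT-26 cells the first was higher than in control BMDCs and the second lower. Of the others, miR-141, miR-200a, miR-205 and miR-429 read at most 7.75. Of 7 mesenchymal names 1, miR-214, was above it on each array, with sums between 335.5 and 415.5 units, and miR-145 and both miR-199a probes read at most 2.5. Of 6 neuronal miRNAs 0 were above the floor, with sums between 13 and 19.25 units. The myeloid sum, of corrected readings that were not normalized, was higher on both co-culture arrays. On those arrays miR-433*, miR-673-3p and miR-370 were lower in normalized intensity. The part of the myeloid sum in those differences was not tested.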

How the data were processed

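Total RNA of 3 BMDC samples carried the Hy3 dye, per the labels' protocols. The design text gives GenePix as scanner and software. The authors deposited 3 kinds of intensity, namely raw, corrected and normalized, per the file headers. Corrected over normalized intensity was constant within each array (325, 398.25 and 335.25 for control, ID8 and CT-26), which is the median over the 159 mouse probes that reached 50 on every array; this was read from the values and is not stated. The series matrix holds the same linear values (largest difference 0; column medians 0.0277, 0.0226 and 0.0231). The files name no genome build.

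Ratios were log2 of normalized intensity where both corrected readings reached 50, with probes of a name averaged. Where 1 did, the bright array's value was divided by the smallest normalized intensity passing the floor on the dim array, giving "at least N-fold". Named were all members above the floor, those past 2-fold, the 5 highest readings and 8 well-known members. Sequences matched 64 of 67 names in RefSeq, those without an arm in the name through miRBase naming. Members and lists were chosen with earlier results of these data known. Alternatives were other scalings, floors, thresholds and background corrections, including normexp from limma 3.58.1. The ratio calculation was tested on simulated data. The number of arrays limits the precision. Analyses used Python 3.11.15, pandas 2.3.3 and R 4.3.3.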

Additional observations from a re-analysis of the deposited data

Results flagged for a closer look

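miR-337-3p had ratios of opposite sign in the co-cultures, with a log2 ratio to control of -0.09 beside ID8 cells and 0.97 beside CT-26 cells, and of -1.06 for ID8 over CT-26. The opposite sign depends on the scaling: the ratios to control were 0.20 and 1.01 without normalization and -1.36 and -0.10 scaled to U6-snRNA-2, in the same order, while ID8 over CT-26 was below 0 in every setting run, from -1.26 to -0.81. The difference was not tested, since each group has 1 array and both ratios share the control array.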

How the results depend on the processing

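No paired analysis was possible because each group has 1 array. A count was taken as moved beyond 1.5 times, and a median beyond 0.2 on log2. No called member changed sign under any alternative run. For ID8 over control, the median log2 ratio was 0.20 without normalization, -1.36 scaled to U6-snRNA-2 and -0.43 scaled to SNORD3@. The lower count was 15 of 17 scaled to U6-snRNA-2, beside 117 of 165 over all mouse miRNAs. With no floor, 1 of 48 members was higher and 10 lower, beside 45 and 50 of 445 over all mouse miRNAs. For CT-26 over control, the median was -1.30 scaled to U6-snRNA-2, -0.66 scaled to SNORD3@ and -0.45 with no floor. Its higher count was 1 of 16 without normalization and 2 of 16 at 1.5-fold, beside 22 and 36 of 158 over all mouse miRNAs. Its lower count was 2 of 16 with quantile normalization, 11 scaled to U6-snRNA-2, 6 scaled to SNORD3@ and 5 at 1.5-fold. Over all 158 mouse miRNAs measured, those lower counts were 12, 83, 31 and 29. With no floor, 1 of 45 members was higher and 9 lower, and at a floor of 100, 0 of 11 were lower. For ID8 over CT-26, the median was 0.28 without normalization. Its lower count was 0 of 16 without normalization, scaled to SNORD3@, with normexp and with an offset of 50. Over all 175 mouse miRNAs measured, those lower counts were 9, 9, 7 and 8. With no floor, 5 of 48 members were higher and 6 lower, beside 34 and 32 of 474 over all mouse miRNAs. At 1.5-fold, 2 of 16 members were higher, beside 11 of 175. A lower floor or threshold admits more members by construction. Leaving out normalization, or scaling to a reference probe, moves every measured log2 ratio of a comparison by the same amount. For U6-snRNA-2 that amount is its own log2 ratio, 1.27 for ID8 and 1.07 for CT-26 over control. For the other settings the cause was not tested. With the floor at the brightest empty spot, 39, 44 and 41 of 67 members were above it in control, ID8 and CT-26 BMDCs. The other mouse miRNAs were not counted at that floor. Whether the members' share was also lower there is therefore not known. The bounds of miR-370 were -0.95 and -0.73 on log2 both with normexp and with an offset of 50 (ID8, then CT-26, over control), and -0.44 and -0.18 at a floor of 100. Over all mouse miRNAs, the counts for CT-26 over control were 13 higher and 6 lower of 118 at a floor of 100. With no floor they were 62 and 71 of 442.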

Other observations

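RefSeq places 56 miRNA genes between Mir770 and Mir410, of which 44 belong to the members and 12 carry other numbers. Of those 12, 4 had probes on the array, with 5 names. miR-882 read 1983 corrected units in control BMDCs, 2586.5 beside ID8 cells and 2430.5 beside CT-26 cells. Its log2 ratios to control were 0.09 and 0.25. miR-654-3p read 40, 17.25 and 11.5 units, highest on the control array and under the floor on all 3. The remaining names, miR-493, miR-453 and miR-654-5p, read at most 19 units.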
